A study of Mus musculus with 6 samples.

Results

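The genes described here are 10 transcription regulators of resting and stem-like T cells: *Tcf7*, *Lef1*, *Bach2*, *Satb1*, *Foxp1*, *Myb*, *Ets1*, *Runx1* and the Id antagonists *Id2* and *Id3*. They were chosen by name, with earlier results of these data known, and all 10 were present among the 12153 genes of the expression table. RNA-Seq was performed on Tregs sorted from B16.F10 melanoma tumors, a transplantable mouse melanoma, 15 days after inoculation. Control mice carried the Nr3c1-flox allele without Cre (3 libraries). Nr3c1-Foxp3Cre mice carried the same floxed allele together with Foxp3-YFP/Cre (3 libraries), so that Cre driven by the *Foxp3* promoter removes *Nr3c1*, the glucocorticoid receptor (GR) gene, in Tregs. Male and female mice were combined in the study, and the labels give no age. Neither the labels nor the study's methods say whether each library came from 1 mouse, so p-values measure the spread between these libraries, which may in part be technical. The labels describe a sort on CD4 and CD25, and the methods a sort on CD4 and Foxp3-YFP, an allele that the labels do not list for the control mice. By these labels, loss of GR cannot be told apart from the Foxp3-YFP/Cre allele itself, or from a gate that differed between the groups. Values are on the log2 CPM scale, where CPM is the share of the reads of a library that a gene takes, scaled as the authors quantile normalized it. Depth per library is unknown.

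Naive and central memory T cells keep a set of transcription factors, many of which decline as cells become effectors. *Tcf7* (TCF-1) and *Lef1* are HMG-box factors that use Groucho/TLE corepressors and β-catenin, and they keep T cells in a stem-like state. *Bach2* represses effector genes and favors resting Tregs, *Foxp1* enforces quiescence, *Satb1* organizes chromatin, and *Myb* supports long-lived T cells and effector Treg differentiation. *Ets1* and *Runx1* are broad T cell factors, and *Runx1* with its partner CBFβ binds Foxp3. *Id2* and *Id3* lack a DNA-binding region and hold E proteins such as E2A (*Tcf3*) and HEB (*Tcf12*) away from E-box DNA. *Id2* is typical of effector lymphocytes, and *Id3* of naive and memory cells.

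*Id2* was lower and *Bach2* and *Foxp1* were higher in Nr3c1-Foxp3Cre Tregs than in control Tregs, each without overlap between the 3 and 3 libraries. None of the 3 passed an adjusted p of 0.05 in limma's moderated test across all genes. The mean of *Id2* was 0.621 times that in control Tregs (95% interval 0.492 to 0.785), that of *Bach2* 1.69 times (1.06 to 2.7) and that of *Foxp1* 1.28 times (1.01 to 1.63). The groups overlapped for the other 7 genes. Of the 10, 0 passed at an adjusted p of 0.05, against 0.0576% of all genes (7 genes, 0.00823% in the higher and 0.0494% in the lower direction). An unadjusted p below 0.05 was found for 3 of the 10, against 3.26% of all genes (396 genes, 1.61% higher and 1.65% lower). Groups did not overlap for 3 of the 10, of which 2 were higher and 1 lower, against 7.41% of all genes (901 genes, 3.69% higher and 3.73% lower). The means of 8 were higher in Nr3c1-Foxp3Cre Tregs and those of 2, *Id2* and *Runx1*, were lower, where 49.5% of all genes had a higher mean. The median log2 fold change of the 10 was 0.27, against -0.0014 over all genes. Since the 10 were chosen with earlier results of these data known, their shares and median are a description, not a test. The mean of 5 fibroblast markers was tried as a covariate, an alternative added once the data had been seen. Of the 8 higher genes, 6 then turned lower, *Foxp1* among them, and *Bach2* and *Myb* did not. Each of the 6 turned values was smaller than its SE (standard error), such as -0.25 (SE 0.32) for *Foxp1*. The fibroblast sums did not overlap between the groups, so this covariate and the genotype can hardly be told apart.

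**Figure D1:**
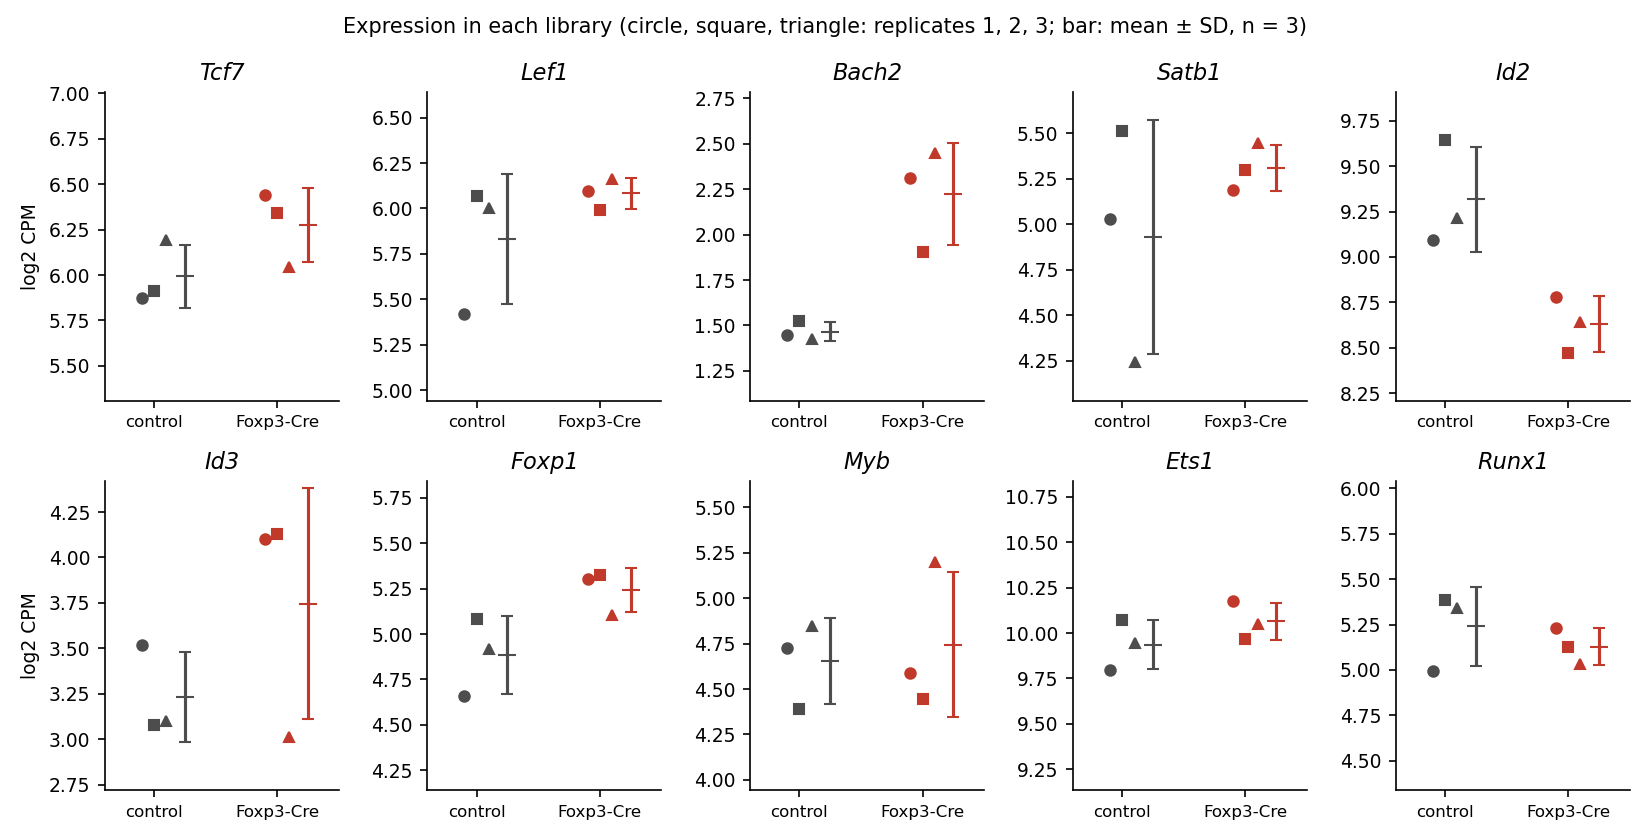
Log2 CPM of each gene (vertical axis, the same span in every panel) in the 3 control libraries (gray) and the 3 Nr3c1-Foxp3Cre libraries (red), with circles, squares and triangles for replicates 1, 2 and 3 and bars for the mean ± SD. *Bach2* and *Foxp1* are higher and *Id2* is lower in every red library than in every gray library, and the other 7 genes overlap.

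The labels were checked on *Nr3c1* itself. It was at 7.15, 7.59 and 6.88 log2 CPM in control replicates 1, 2 and 3 and at 6.14, 5.45 and 5.90 in Nr3c1-Foxp3Cre replicates 1, 2 and 3, and the groups did not overlap. The fitted difference was -1.38 on the log2 scale (standard error, SE, 0.21, adjusted p = 0.120 by limma). *Tsc22d3* (GILZ), a GR-induced gene, fell, with a log2 fold change of -1.56 (SE 0.16, adjusted p = 0.0342 by limma). This call was lost in 7 of 17 alternatives, with an adjusted p of 0.221 without a trend, 0.137 with a block on replicate number, 0.998 with the fibroblast covariate, and 0.0639 to 0.154 without control replicate 3 or any 1 of the Nr3c1-Foxp3Cre replicates. No library stood apart from the rest, with a mean correlation to the others across genes of 0.967 to 0.974. All 8 Treg markers were in the table, summing to 4418 to 5914 CPM in control and 4273 to 4725 CPM in Nr3c1-Foxp3Cre libraries, as were all 6 T cell markers, at 4311 to 5332 and 4747 to 5228 CPM. Of the Treg markers, 3 had a higher and 5 a lower mean in Nr3c1-Foxp3Cre libraries (median log2 fold change -0.062), and their sums overlapped. Only *Ccr8*, a chemokine receptor of tumor Tregs, was without overlap. It was lower, at 8.79 to 9.29 against 8.29 to 8.58 log2 CPM (log2 fold change -0.53, unadjusted p = 0.00457 by limma). *Foxp3* was present at a modest 3.39 to 4.47 log2 CPM, and *Il2ra* (CD25) at 8.20 to 8.75. Of the markers of other cells, 8 of 8 melanoma genes were present and summed to 3598 to 9692 CPM in control libraries and 3970 to 10093 CPM in Nr3c1-Foxp3Cre libraries. The 10 macrophage and monocyte genes summed to 377 to 564 CPM and 280.2 to 544 CPM. Of these, 9 had a lower mean in Nr3c1-Foxp3Cre libraries (median log2 fold change -0.40), and the complement genes *C1qa*, *C1qb* and *C1qc* were at -0.63, -0.67 and -0.72 with overlapping groups. The 5 fibroblast genes summed to 187 to 460 CPM in control libraries and 76.7 to 167 CPM in Nr3c1-Foxp3Cre libraries, without overlap, and all 5 had a lower mean. The part of other cells in these results was not tested beyond the covariates given. Of 2 CD8 T cell genes only *Cd8b1* was in the table, at 7.62 to 15.6 and 10.2 to 12.8 CPM, of 5 B cell genes only *Cd79b*, at 14.1 to 23.4 and 15.1 to 21.3 CPM, and 3 of 5 dendritic cell genes summed to 31.0 to 49.1 and 34.3 to 44.0 CPM. The 3 of 4 endothelial genes in the table summed to 54.3 to 57.9 and 56.2 to 77.1 CPM, and 1 of them, *Pecam1*, was higher without overlap, at 5.48 to 5.68 against 5.74 to 5.97 log2 CPM (unadjusted p = 0.0436 by limma). *Kdr* and *Vwf* overlapped, at log2 fold changes of -0.13 (SE 0.87) and 0.11 (SE 0.51). The B cell genes *Cd79a*, *Ms4a1* and *Pax5* and the NK cell genes *Ncr1*, *Klrb1c* and *Eomes* were not listed in the table.

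*Id2* (ENSMUSG00000020644.9, mm10 chromosome 12 from 25093799 to 25097140) was the member with the smallest p, at position 27 of the 12153 genes. Control replicates 1, 2 and 3 were at 9.09, 9.64 and 9.22 log2 CPM, and Nr3c1-Foxp3Cre replicates 1, 2 and 3 at 8.78, 8.47 and 8.64. On the linear scale these were 546, 800 and 595 CPM against 439, 355 and 399 CPM. The lowest control library therefore stood 0.31 log2 units above the highest Nr3c1-Foxp3Cre library. The group means were 9.32 ± 0.29 (SD, n = 3) and 8.63 ± 0.15 (SD, n = 3), a difference larger than both SDs. The log2 fold change was -0.69 (SE 0.15, adjusted p = 0.544 by limma), with a 95% interval from -1.02 to -0.35. With the mean of the melanoma genes as a covariate it was -0.70 at a limma adjusted p of 0.0429. Over the 17 alternatives the adjusted p of *Id2* ran from 0.0429 to 1.0, and its unadjusted p was under 0.05 in all 17.

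The summed fibroblast genes moved with the groups in the direction of *Id2*, as did *Ccr8*, the only 1 of 8 Treg markers without overlap. The means of 9 of the 10 macrophage and monocyte genes moved likewise, with overlapping groups. So did *Nkg7*, the 1 of 4 NK cell markers in the table. It was at 9.59 to 9.75 log2 CPM in control libraries and 9.10 to 9.63 in Nr3c1-Foxp3Cre libraries, with overlapping groups. As *Ncr1*, *Klrb1c* and *Eomes* were not in the table, *Nkg7* alone cannot tell the content of NK cells. The summed Treg, T cell, melanoma and endothelial genes overlapped between the groups. *Pecam1*, 1 of 3 endothelial genes in the table, was higher without overlap. With the mean of the fibroblast genes as a covariate, the log2 fold change of *Id2* was -1.24 and its SE was 0.33. The covariate and the genotype can hardly be told apart, since the fibroblast sums of the groups do not overlap. In these bulk libraries, fewer cells that express a gene and less of its RNA per cell cannot be told apart.

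*Id3* (ENSMUSG00000007872.3, chromosome 4 from 136143497 to 136145755) was far less abundant. Control replicates 1, 2 and 3 were at 3.52, 3.08 and 3.10 log2 CPM, and Nr3c1-Foxp3Cre replicates 1, 2 and 3 at 4.10, 4.13 and 3.01. The first and second Nr3c1-Foxp3Cre libraries thus lay above every control library, whereas the third was the lowest of the 6. Its log2 fold change was 0.52 (SE 0.32, adjusted p = 1.0 by limma), less than the SD of 0.64 among Nr3c1-Foxp3Cre libraries. It was 0.34, 0.33 and 0.88 without Nr3c1-Foxp3Cre replicate 1, 2 and 3.

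The 2 antagonists were also compared within each library. The log2 value of *Id2* minus that of *Id3* was 5.57, 6.56 and 6.12 in control libraries and 4.68, 4.35 and 5.63 in Nr3c1-Foxp3Cre libraries. Nr3c1-Foxp3Cre replicate 3 fell between the control values, so the groups overlapped. The means were 6.09 ± 0.50 (SD, n = 3) and 4.88 ± 0.67 (SD, n = 3), and the difference of -1.20 did not pass an exact two-sided permutation test (p = 0.2, where 0.1 is the smallest p that 3 against 3 libraries allow). *Id2* remained the more abundant in all 6 libraries.

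*Bach2* (ENSMUSG00000040270.16, chromosome 4 from 32238804 to 32586108) was the least abundant of the 10. Control replicates 1, 2 and 3 were tightly grouped at 1.45, 1.52 and 1.42 log2 CPM, and Nr3c1-Foxp3Cre replicates 1, 2 and 3 were at 2.31, 1.91 and 2.45. These were 2.73, 2.88 and 2.68 CPM against 4.97, 3.75 and 5.45 CPM, with every Nr3c1-Foxp3Cre library above every control library by at least 0.38 log2 units. The log2 fold change was 0.76 (SE 0.30, adjusted p = 1.0 by limma), with a 95% interval from 0.082 to 1.43. Its unadjusted p was 0.0317 by limma and lay from 0.0229 to 0.0913 when 1 library was left out. It was above 0.05 without control replicate 1 (0.0642), control replicate 3 (0.0783), Nr3c1-Foxp3Cre replicate 1 (0.0849) or Nr3c1-Foxp3Cre replicate 3 (0.0913), and also with the block on replicate number (0.0665) or with the fibroblast covariate (0.233). The antisense gene *Bach2os* shares 537 exonic bases with *Bach2*, and its reads cannot be told apart there, because the library kit does not mark strand. *Bach1*, the related repressor that shares its small Maf partners, was at -0.034 to 1.22 log2 CPM with overlapping groups (log2 fold change -0.13, SE 0.47).

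The 250 bases before the RefSeq start of the genes with 1 window and no overlap between groups, *Id2* and *Bach2*, are shown because the 2 genes differed in opposite directions. Build GRCm38.p6 is used, in the sense of each gene, and capitals mark matches to a GR half-site (TGTTCT, or AGAACA on the other strand) or to an E-box, which was searched in the palindromic form CAGCTG and in the form CACCTG, the latter read as CAGGTG on the other strand.. The *Id2* window is chr12:25096093-25096342 on the minus strand, where the GENCODE gene begins at 25097140. The *Bach2* window is chr4:32417185-32417434 on the plus strand, where the GENCODE gene begins at 32238804. Both windows thus lie inside the GENCODE genes, that of *Bach2* far from the GENCODE start. Neither holds the bases before the GENCODE start.
Id2: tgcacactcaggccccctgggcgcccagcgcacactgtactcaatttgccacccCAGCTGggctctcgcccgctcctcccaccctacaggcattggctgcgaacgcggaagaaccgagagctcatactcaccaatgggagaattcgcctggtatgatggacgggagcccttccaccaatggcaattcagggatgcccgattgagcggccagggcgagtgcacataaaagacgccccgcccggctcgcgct
Bach2: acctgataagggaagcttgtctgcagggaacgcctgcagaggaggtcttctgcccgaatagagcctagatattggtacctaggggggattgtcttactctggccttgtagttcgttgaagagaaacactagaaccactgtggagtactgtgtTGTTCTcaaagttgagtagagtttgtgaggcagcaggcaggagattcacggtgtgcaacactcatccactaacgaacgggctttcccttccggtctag
The *Id2* window held 1 CAGCTG E-box that begins 196 bases before the start, and no GR half-site. The *Bach2* window held 1 GR half-site that begins 98 bases before the start, and neither E-box. RefSeq windows were matched for 9 of the 10 genes, 20 windows in all. *Ets1* had no entry. A GR half-site was found in 3 of the 20 windows (15.0%), against 16.1% of all 32851 windows, CAGCTG in 4 (20.0%) against 13.0%, and CACCTG in 3 (15.0%) against 17.2%. A full glucocorticoid response element, as an exact inverted repeat of the half-site with 3 bases between, was in 0 of the 20 and in 0.00913% of all windows, and a TCF/LEF core (CTTTGAT, or ATCAAAG) in 0 of the 20 and 3.21% of all. These are matches of letters only, in shares near those of all windows.

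*Foxp1* (ENSMUSG00000030067.17, chromosome 6 from 98925338 to 99522721) was at 4.66, 5.08 and 4.92 log2 CPM in control replicates 1, 2 and 3. In Nr3c1-Foxp3Cre replicates 1, 2 and 3 it was at 5.30, 5.32 and 5.10. The groups were separated by only 0.022 log2 units, between control replicate 2 and Nr3c1-Foxp3Cre replicate 3. The log2 fold change was 0.36 (SE 0.15, adjusted p = 1.0 by limma). Its unadjusted p by limma was 0.0443, and it was above 0.05 without control replicate 1 (0.156), control replicate 3 (0.0854), Nr3c1-Foxp3Cre replicate 1 (0.107) or Nr3c1-Foxp3Cre replicate 2 (0.112), with the block (0.0787) and without a trend (0.0533). With the fibroblast covariate its log2 fold change was -0.25 (SE 0.32). Of its paralogs, *Foxp3* overlapped between the groups at a log2 fold change of 0.053 (SE 0.32), which was -0.21 without control replicate 1.

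**Figure D2:**
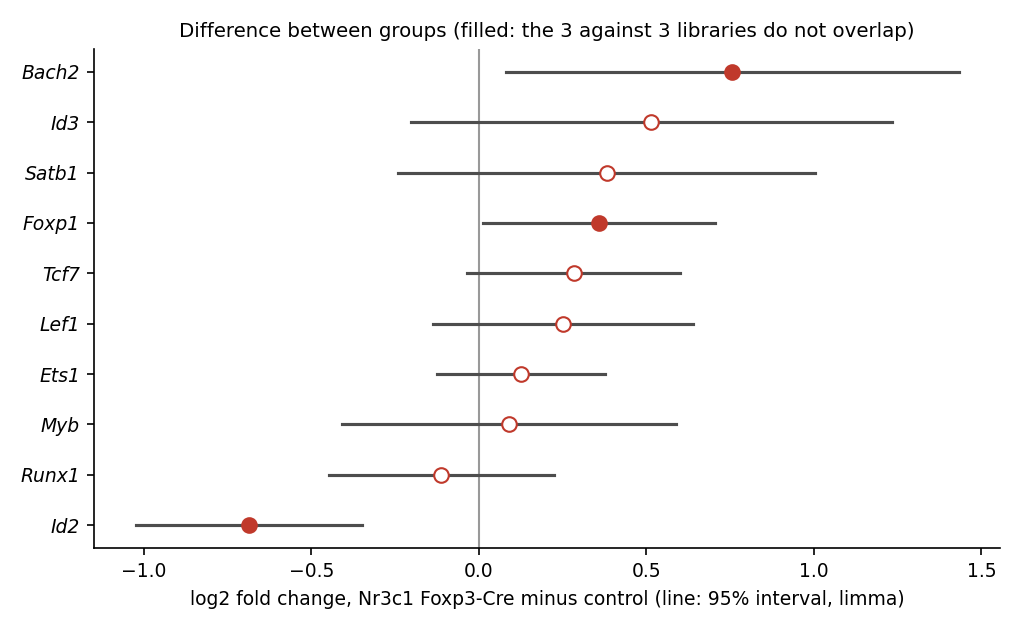
Log2 fold change of each gene (horizontal axis, Nr3c1-Foxp3Cre minus control) with its 95% interval from limma, ordered by size. Intervals of *Id2*, *Bach2* and *Foxp1* (filled points, groups without overlap) leave out 0 before any adjustment, from -0.69 for *Id2* to 0.76 for *Bach2*, and those of the 7 other genes include it.

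*Tcf7* (ENSMUSG00000000782.15, chromosome 11 from 52252371 to 52283014) was at 5.87, 5.91 and 6.19 log2 CPM in control replicates 1, 2 and 3 and at 6.44, 6.34 and 6.05 in Nr3c1-Foxp3Cre replicates 1, 2 and 3. Control replicate 3 lay above Nr3c1-Foxp3Cre replicate 3, so the groups overlapped. The log2 fold change of 0.28 (SE 0.14, adjusted p = 1.0 by limma) was larger than the SDs of 0.18 and 0.21, and its 95% interval ran from -0.035 to 0.60. It lay from 0.20 (without Nr3c1-Foxp3Cre replicate 1) to 0.40 (without Nr3c1-Foxp3Cre replicate 3) with 1 library left out, and was 0.11 with sample quality weights and -0.0035 with the fibroblast covariate.

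*Lef1* (ENSMUSG00000027985.14, chromosome 3 from 131110471 to 131224356) was at 5.42, 6.07 and 6.0 log2 CPM in control libraries and at 6.10, 5.99 and 6.16 in Nr3c1-Foxp3Cre libraries. Control replicate 1 alone stood low, and the other 5 libraries lay within 5.99 to 6.16. The log2 fold change was 0.25 (SE 0.17, adjusted p = 1.0 by limma), and 0.046 without control replicate 1, 0.12 with sample quality weights and -0.24 with the fibroblast covariate. The antisense gene *Gm43352* shares 1208 exonic bases with *Lef1* and was at 0.43 to 1.63 log2 CPM. Here too, reads of the shared bases cannot be assigned by strand. Antisense genes also share 559 exonic bases with *Myb* and 106 with *Runx1*. Other annotated genes share up to 300 exonic bases with *Foxp1* and up to 156 with *Satb1*, while no such overlap was found for *Id2*, *Id3*, *Tcf7* or *Ets1*.

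*Satb1* (ENSMUSG00000023927.15, chromosome 17 from 51736187 to 51833290) varied most among control libraries, at 5.03, 5.52 and 4.24 log2 CPM, and was at 5.19, 5.30 and 5.44 in Nr3c1-Foxp3Cre libraries. All 3 Nr3c1-Foxp3Cre libraries lay within the control range. The log2 fold change of 0.38 (SE 0.28, adjusted p = 1.0 by limma) was smaller than the control SD of 0.64. It was 0.037 without control replicate 3, 0.68 without control replicate 2, 0.94 with sample quality weights and -0.12 with the fibroblast covariate.

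*Ets1* (ENSMUSG00000032035.15, chromosome 9 from 32636221 to 32757820) had the highest log2 CPM of the 10, above 99.3% of all genes, and the narrowest spread of the 10 relative to all genes. It was at 9.80, 10.07 and 9.94 log2 CPM in control libraries and 10.17, 9.97 and 10.05 in Nr3c1-Foxp3Cre libraries, with a log2 fold change of 0.13 (95% interval -0.12 to 0.38). Leaving out control replicate 1 gave 0.057, control replicate 2 0.19 and Nr3c1-Foxp3Cre replicate 1 0.072. *Runx1* (ENSMUSG00000022952.17, chromosome 16 from 92601466 to 92826149) was at 4.99, 5.38 and 5.34 log2 CPM against 5.23, 5.12 and 5.03, with a log2 fold change of -0.11 (95% interval -0.45 to 0.22). Leaving out control replicate 1, 2 or 3 gave -0.24, -0.039 and -0.060, and leaving out Nr3c1-Foxp3Cre replicate 3 gave -0.062. It was -0.60 with the fibroblast covariate. *Myb* (ENSMUSG00000019982.15, chromosome 10 from 21124935 to 21160984) was at 4.72, 4.39 and 4.85 against 4.59, 4.45 and 5.20, with a log2 fold change of 0.091 (95% interval -0.41 to 0.59). The Nr3c1-Foxp3Cre libraries of *Runx1* all lay within its control range. *Myb* was highest in Nr3c1-Foxp3Cre replicate 3, and without that library its log2 fold change was -0.14. Without control replicate 2 it was -0.041, and with the fibroblast covariate 1.10.

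Across libraries, control replicate 1 held the lowest value of 5 of the 10 genes, namely *Tcf7*, *Lef1*, *Foxp1*, *Ets1* and *Runx1*, and the highest of 0. It also had the lowest T cell sum of the 6 libraries (4311 CPM). Its melanoma and fibroblast sums (9692 and 460 CPM) were the highest among control libraries. A link between these sums and the 5 low values was not tested. Control replicate 2 held the highest value of 3, *Satb1*, *Id2* and *Runx1*, and Nr3c1-Foxp3Cre replicate 3 the highest of 3, *Lef1*, *Bach2* and *Myb*.

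The order of the genes was examined per length, as log2 CPM per kilobase of exon in GENCODE M21, where long untranslated exons lower the value of genes such as *Satb1*. *Id2* led in control Tregs at 8.03 log2 CPM per kilobase, followed by *Ets1* at 6.85, *Tcf7* at 4.60 and *Lef1* at 2.7. In Nr3c1-Foxp3Cre Tregs the same 4 led, at 7.34, 6.98, 4.88 and 2.95. The level of *Id2* exceeded that of *Ets1* in all 6 libraries, by 1.2 ± 0.17 (SD, n = 3) in control and 0.36 ± 0.055 (SD, n = 3) in Nr3c1-Foxp3Cre libraries. *Lef1* and *Id3* were not separated beyond their spread in either group, with differences of 0.31 ± 0.61 (SD, n = 3) and 0.042 ± 0.71 (SD, n = 3). Nor were *Runx1* and *Myb*, whose order was not the same in the 2 groups. *Foxp1* and *Satb1* came next, and *Bach2* was last at -1.85 and -1.09, below *Satb1* in all 6 libraries.

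**Figure D3:**
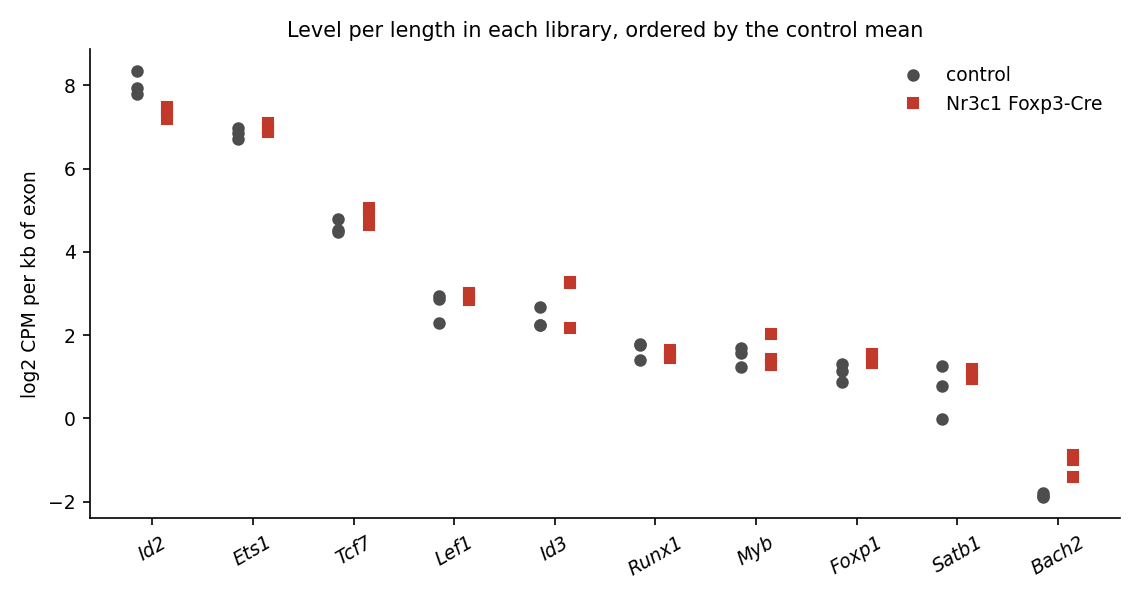
Level of each gene per length (vertical axis, log2 CPM per kilobase of exon) in control libraries (gray circles) and Nr3c1-Foxp3Cre libraries (red squares), 3 each, ordered by the control mean. *Id2*, *Ets1* and *Tcf7* lead and *Bach2* is last in both groups, and the gap between *Id2* and *Ets1* is narrower in Nr3c1-Foxp3Cre libraries (0.36 against 1.2).

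Genes that work with these factors were read from 5 lists, which hold 70 genes of the table. Of these, 0 passed at an adjusted p of 0.05 by limma, 6 (8.57%) had an unadjusted p below 0.05, and groups did not overlap for 7 (10%), against 3.26% and 7.41% of all genes. In the list of naive and central memory genes, 24 of 26 were in the table, 16 with a higher and 8 with a lower mean in Nr3c1-Foxp3Cre Tregs and a median log2 fold change of 0.068. An unadjusted p under 0.05 was found for 2 in the higher direction, *Il6st* among them, and 2 in the lower direction, *Ccr7* and *Il7r*. Over all genes these shares were 1.61% and 1.65%.

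*Ccr7*, the chemokine receptor that guides cells within lymph nodes, was lower without overlap, at 7.05, 7.50 and 7.07 against 6.95, 6.63 and 6.20 (log2 fold change -0.61, SE 0.19, adjusted p = 1.0 by limma). *Il7r*, the receptor for the survival cytokine IL-7, was also lower without overlap, at 6.78, 7.56 and 6.67 against 6.59, 5.57 and 6.15 (log2 fold change -0.90, SE 0.28, adjusted p = 1.0 by limma). With sample quality weights that of *Il7r* was -0.59, and with the fibroblast covariate those of *Ccr7* and *Il7r* were -1.62 and -1.67. *Il6st* (gp130) gave a log2 fold change of 0.36 (SE 0.13) without overlap. *Klf2* and *S1pr1*, a factor and its target in lymphocyte egress, overlapped, at log2 fold changes of 0.030 (SE 0.14) and 0.094 (SE 0.12). Both directions turned in some alternatives, with ranges of -0.58 to 0.14 and -0.16 to 0.16.

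**Figure D4:**
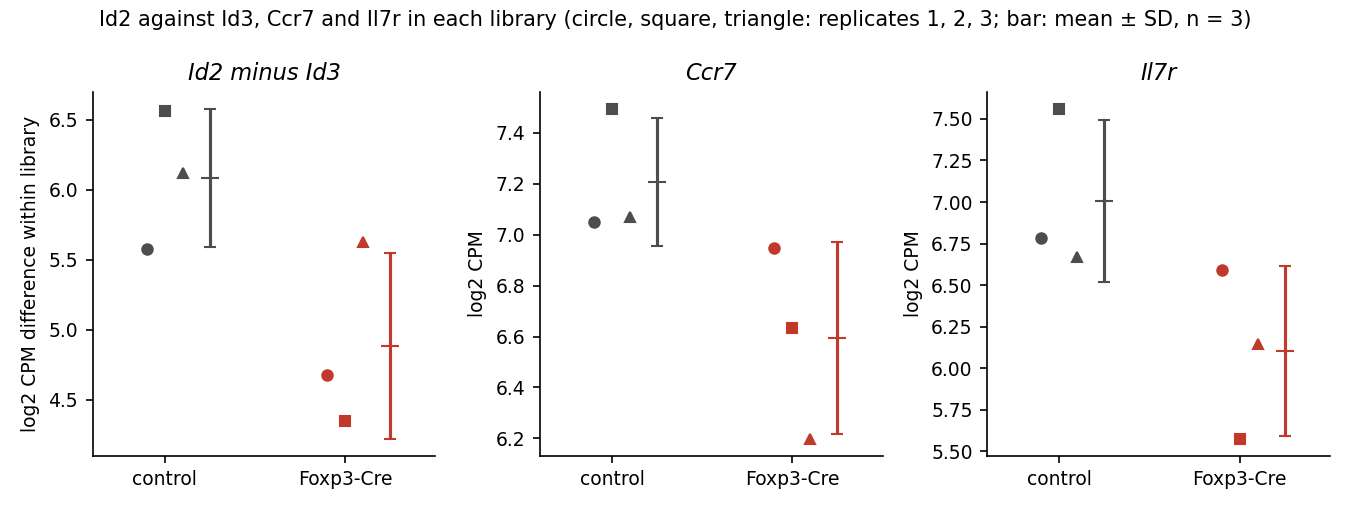
Left, log2 CPM of *Id2* minus that of *Id3* within each library. The other panels give log2 CPM of *Ccr7* and *Il7r*, with circles, squares and triangles for replicates 1, 2 and 3 and bars for the mean ± SD. The *Id2* to *Id3* difference overlaps between groups through Nr3c1-Foxp3Cre replicate 3 at 5.63, while *Ccr7* and *Il7r* are lower in every Nr3c1-Foxp3Cre library. The vertical axes differ between panels.

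Among E proteins, the targets of Id factors, *Tcf3*, *Tcf4* and *Tcf12* were in the table, 1 with a higher and 2 with a lower mean, and 0 had an unadjusted p under 0.05. *Tcf3* gave a log2 fold change of -0.0092 (SE 0.14) and *Tcf12* of 0.12 (SE 0.25), and both signs turned when single libraries were left out. *Id1* and *Id4* were not listed in the table. Of 13 TCF/LEF cofactors, 11 were in the table, 8 with a higher and 3 with a lower mean (median log2 fold change 0.029), and 0 had an unadjusted p under 0.05. *Tle3*, a Groucho corepressor, gave a log2 fold change of 0.48 (SE 0.37) and *Ctnnb1* (β-catenin) of 0.030 (SE 0.16). The *Tle3* interval is wide, since its control libraries ranged from 3.50 to 5.06 log2 CPM. Its log2 fold change was 0.10 and 0.88 when control replicate 1 or 2 was left out, and 0.28 and 0.72 when Nr3c1-Foxp3Cre replicate 1 or 2 was.

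Of 18 partners and paralogs, 16 were in the table, 7 with a higher and 9 with a lower mean (median log2 fold change -0.018), and 1, the small Maf gene *Maff*, had an unadjusted p under 0.05, with overlapping groups. *Cbfb*, the obligate partner of Runx factors, gave a log2 fold change of -0.19 (SE 0.12), and *Runx3*, the paralog of cytotoxic cells, of 0.086 (SE 0.29), both with overlapping groups. That of *Cbfb* lay nearer 0 without control replicate 3 (-0.11) or Nr3c1-Foxp3Cre replicate 2 (-0.100), and was -0.31 with sample quality weights. All 16 effector transcription factors were in the table, 8 with a higher and 8 with a lower mean (median log2 fold change 0.045). *Nr4a1*, an immediate target of TCR signals, was the only one of the 16 with an unadjusted p under 0.05, at 8.76, 8.96 and 9.18 log2 CPM in control libraries and 9.54, 9.40 and 9.30 in Nr3c1-Foxp3Cre libraries (log2 fold change 0.45, SE 0.13, adjusted p = 1.0 by limma). With the fibroblast covariate its log2 fold change was 0.15 (unadjusted p = 0.632), and with sample quality weights 0.27. *Prdm1* (Blimp-1), which opposes TCF-1 and Bach2 in effector cells, overlapped between groups at a log2 fold change of -0.20 (SE 0.17), as did *Irf4* at 0.43 (SE 0.25), *Batf* at -0.0090 (SE 0.12) and *Gata3* at -0.055 (SE 0.21). Without control replicate 1 that of *Irf4* was 0.15.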

How the data were processed

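After trimming (Cutadapt) and alignment to mm10 (STAR), the authors obtained expected counts with RSEM and the GENCODE M21 annotation. They dropped low genes, applied quantile normalization and used limma-voom. The file they deposited holds log2 CPM after normalization, in one column for each library. Quantile normalization gives every library nearly the same distribution, so a shift common to most genes cannot be seen. Counts and depth are not given by these values, so no counting interval was computed.

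All 12153 genes were fitted with limma 3.58.1 (R 4.3.3), with genotype as the only term and a trended eBayes prior, and Benjamini-Hochberg adjustment was made across the table, with a threshold of 0.05. The within-library difference of *Id2* and *Id3* was compared with an exact permutation test. Positions and exon lengths came from GENCODE M21, which matched 12130 identifiers (99.81%), and promoter windows from RefSeq. The fit was tested on simulated data.

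The 10 genes and the companion lists were chosen with earlier results of these data known. Companion genes named are fixed examples, genes past an adjusted p of 0.05, and up to 3 per list with an unadjusted p under 0.05 and no overlap. *Maff* was named after its values were seen. Some list genes are not reported here. Marker lists cover Tregs, T cells, CD8 T cells, B cells, macrophages and monocytes, dendritic cells, NK cells, melanoma, fibroblasts and endothelial cells. Alternatives were eBayes without a trend, robust eBayes, sample quality weights, vooma weights, a floor of 1 on the mean log2 value, a pseudocount of 1, cyclic loess, subtraction of each library's median over genes averaging at least 5, the replicate number as a block, melanoma and fibroblast marker means as covariates, and leaving out each library.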

Additional observations from a re-analysis of the deposited data

How the results depend on the processing

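The 10 genes were refitted under 17 alternatives, giving 170 values, of which 160 kept their direction and their side of the threshold, 9 changed sign and 1, *Id2* with the melanoma covariate, passed it. *Id2*, *Bach2* and *Runx1* kept their direction in all 17. Sample quality weights turned *Myb* to -0.040, and its log2 fold change ranged from -0.14 to 0.24 with 1 library left out. The fibroblast covariate, whose summed genes do not overlap between the groups, turned 6 of the 10: *Tcf7* to -0.0035, *Lef1* to -0.24, *Satb1* to -0.12, *Id3* to -0.075, *Foxp1* to -0.25 and *Ets1* to -0.16. It also turned *Cbfb* to 0.15, *Foxp3* to -1.02, *Irf4* to -0.62, *Klf2* to -0.58, *Runx3* to -0.72, *S1pr1* to -0.16 and *Tle3* to -0.93. Sample quality weights turned *Bach1* to 0.10, *Batf* to 0.058, *Gata3* to 0.020 and *S1pr1* to -0.0051. With 1 library left out, the ranges that crossed 0 were -0.35 to 0.22 for *Bach1*, -0.089 to 0.081 for *Batf*, -0.098 to 0.19 for *Ctnnb1*, -0.21 to 0.31 for *Foxp3*, -0.26 to 0.19 for *Gata3*, -0.046 to 0.14 for *Klf2*, -0.35 to 0.0055 for *Prdm1*, -0.15 to 0.39 for *Runx3*, -0.0095 to 0.16 for *S1pr1*, -0.11 to 0.33 for *Tcf12* and -0.12 to 0.11 for *Tcf3*. The cause was not tested.

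Of the 10 genes, 5 had an unadjusted p under 0.05 with sample quality weights (11.3% of all genes), 5 with the melanoma covariate (5.55%) and 1 to 4 with 1 library left out (2.39% to 5.78%). With the weights these were *Bach2*, *Satb1*, *Id2*, *Id3* and *Foxp1*, and with the melanoma covariate *Tcf7* took the place of *Satb1*. Groups did not overlap for 3 to 5 of the 10 genes with 1 library left out, when fewer libraries are compared and 13.2% to 20% of all genes do not overlap. Of the 70 genes of the companion lists, 6 had an unadjusted p under 0.05 in the main fit (3.26% of all genes). With sample quality weights 17 did (11.3% of all genes), and with 1 library left out 4 to 11 did (2.39% to 5.78% of all genes). Over all genes, limma called 0 higher and 0 lower without a trend (469 with an unadjusted p under 0.05), 7 higher and 12 lower with sample quality weights, 2 higher with vooma weights, 4 higher and 14 lower with the melanoma covariate, 0 higher and 0 lower with the fibroblast covariate (330 unadjusted), and 0 to 3 higher and 0 to 5 lower with 1 library left out. The *Id2* minus *Id3* difference lay from -1.57 to -0.93 with 1 library left out.

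With the replicate number as a block, limma called 0 genes in either direction (275 with an unadjusted p under 0.05), and of the 10 genes 1, *Id2*, had an unadjusted p under 0.05. The *Id2* minus *Id3* difference was -1.20 (exact permutation within pairs, p = 0.25, the smallest that 3 pairs allow). Deviations of same-numbered libraries correlated across genes at -0.117, -0.329 and -0.025, and those of differently numbered ones at -0.269 to 0.365. Such correlations cannot tell how the libraries were collected, so whether the number marks pairs is unknown. Depth is unknown, which limits low genes such as *Bach2* most.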
